A study of Danio rerio with 6 samples.

Results

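The SoxB1 genes were examined in cells of the zebrafish (Danio rerio) head that carry a scarb2a reporter, in scarb2a mutants and in wild type siblings of theirs, at 48 hours post fertilization. The members were taken by name. Of the 6 names sox1a, sox1b, sox2, sox3, sox19a and sox19b, 5 matched a row of the deposited table of 11218 genes exactly. All 5 reached a mean value of 5, the minimum for testing that 9647 genes met. sox1a itself was not analysed here. A row named sox1a_2 and a second sox19a row, sox19a_1, are described apart from the members, because the sources used here do not say what the suffix stands for.

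The mutant group was 3 libraries, replicates 1, 2 and 3, from scarb2a mutants, whose lesion the sources used here do not name. The wild type group was 3 libraries, replicates 1, 3 and 4, from siblings. Each library came from 5000 live reporter cells sorted from a pool of 50 heads, and the labels call the pools biological replicates. Both genotypes carried the transgene that the labels write as TgBAC(scar2ba:KalTA4; UAS-mKate2), so the population is defined by scarb2a regulatory sequence and by the gate of the sort, not by a SoxB1 gene. scarb2a is the fish counterpart of the gene for LIMP-2, a membrane protein of lysosomes. The series title sets the question in radial glia progenitors and brain vessels.

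SoxB1 proteins are transcription factors with an HMG box, the DNA-binding domain shared by all Sox proteins. In vertebrate neural tissue they keep progenitors, radial glia among them, in an undifferentiated state. They act with partner proteins of the POU and PAX families, and the closely related SoxB2 proteins, such as Sox14 and Sox21, act mostly as repressors against them. In zebrafish, sox2 and sox3 mark progenitors of the brain and spinal cord as well as sensory placodes, sox19a is an early gene of the neural plate, and sox19b is supplied by the mother and takes part in the first activation of the zygotic genome. sox1a and sox1b are expressed in brain regions and in the lens, where mouse Sox1 activates crystallin genes.

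sox2 and sox3 fell in the mutant, with means that fell by 25.4% for sox2 and fell by 31.4% for sox3 relative to wild type, while sox1b, sox19a and sox19b did not pass the test. These 2 of 5 members stand against 8.5% of the 9647 genes tested that were lower in the same fit, and none of the members was among the 10.9% that were higher. All 5 members had a negative difference, with a median of -0.42 on the log2(value + 1) scale, against a median of -0.014 over all genes tested. Of all tested genes, 51.5% had a negative difference. The mutant and wild type values did not overlap for sox2 and sox3, as was the case, with the mutant lower, for 16.7% of the genes tested. Values here are normalized counts, that is, counts divided by 1 factor per library. The test was limma's moderated test on log2(value + 1) with Benjamini-Hochberg adjustment over all genes tested and a threshold of 0.05. In bulk samples, fewer cells that express a gene and less of its RNA in each cell cannot be told apart.

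sox3, a factor of neural progenitors and placodes, had 428.5, 467.6 and 385.3 normalized counts in mutants 1, 2 and 3, against 664.8, 619.3 and 584.0 in wild types 1, 3 and 4. The highest mutant library lay well under the lowest wild type one. The means were 427.1 ± 41.2 in mutants and 622.7 ± 40.5 in wild types (SD, n = 3 each), a log2 difference of -0.55 ± 0.0872 (SE; limma adjusted p = 1.57e-04). Its 95% interval ran from -0.73 to -0.36.

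sox2, which maintains neural stem cells and also acts in the retina and inner ear, had 244.2, 228.8 and 240.3 normalized counts in mutants 1, 2 and 3, against 339.3, 291.2 and 325.3 in wild types 1, 3 and 4. The mutant libraries lay close together, and all of them were under every wild type library. The means were 237.8 ± 8.01 in mutants and 318.6 ± 24.7 in wild types (SD, n = 3 each), with a log2 difference of -0.42 ± 0.0920 (SE; limma adjusted p = 0.00294) and a 95% interval from -0.61 to -0.23. The call for sox2 and that for sox3 held in each fit with 1 library left out. Both were lost in limma without a mean-variance trend, at adjusted p values of 0.0849 and 0.0538, a fit in which 4.45% of the genes tested were lower.

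Larger falls were common in this comparison. Of the genes called lower in the mutant, 84.3% had a larger fall than sox2 and 70.4% a larger fall than sox3. Over all genes tested, 16.9% had a more negative difference than sox2 and 11.8% a more negative one than sox3.

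In the annotation of the RefSeq assembly GRCz12tu, sox2 lies inside sox2ot, a long non-coding RNA gene. The table does not say which reads were given to which of them. sox2ot had 17.6, 20.8 and 23.6 normalized counts in mutants and 17.3, 28.1 and 28.9 in wild types, and the groups overlapped. Its log2 difference of -0.22 ± 0.254 (SE) did not pass (limma adjusted p = 0.595).

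sox1b, a gene of the brain and the lens, had 89.0, 106.0 and 82.5 normalized counts in mutants and 109.7, 103.9 and 85.1 in wild types. The libraries of both genotypes covered the same range. The means were 92.5 ± 12.1 and 99.6 ± 12.9 in mutants and wild types (SD, n = 3 each). The log2 difference was -0.10 ± 0.138 (SE; limma adjusted p = 0.658), with a 95% interval from -0.39 to 0.18. Falls of the size fitted for sox2, sox3 and sox19b lie outside that interval, and one of the size fitted for sox19a lies inside it. This leaves out the error of those fits, so it does not show that sox1b changed less than they did.

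sox19a had 128.3, 127.8 and 116.1 normalized counts in mutants 1, 2 and 3, against 207.8, 127.7 and 147.8 in wild types 1, 3 and 4. Wild type 1 stood high, and wild type 3 fell among the mutant values. The means were 124.1 ± 6.90 in mutants and 161.1 ± 41.7 in wild types (SD, n = 3 each), with a log2 difference of -0.35 ± 0.143 (SE; limma adjusted p = 0.101). This difference rested on single libraries: it was -0.15 without wild type 1 (adjusted p = 0.492) and -0.50 without wild type 3 (adjusted p = 0.0255). With the totals of all libraries made equal it was -0.46 and passed (adjusted p = 0.0246), where 13.5% of the genes tested were lower and the median over all genes moved by -0.11. Relative to that median, the sox19a difference was -0.33 under both scalings.

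The row sox19a_1 had 15.5, 21.8 and 15.4 normalized counts in mutants and 16.2, 8.7 and 17.7 in wild types, with overlapping groups and a log2 difference of 0.33 ± 0.310 (SE; limma adjusted p = 0.516). With both sox19a rows summed, an alternative chosen after seeing the data, the means were 141.6 ± 9.24 in mutants and 175.3 ± 44.6 in wild types (SD, n = 3 each), and the log2 difference was -0.28 ± 0.141 (SE; limma adjusted p = 0.189). The row sox1a_2 had 12.4, 20.8 and 30.8 normalized counts in mutants and 21.9, 30.3 and 24.1 in wild types. The mutant libraries spread across the whole wild type range and beyond it, and the log2 difference of -0.32 ± 0.285 (SE) did not pass (limma adjusted p = 0.492).

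sox19b, the maternally supplied member, was the lowest of the 5 rows, at 22.8, 18.8 and 12.7 normalized counts in mutants 1, 2 and 3 and 30, 22.7 and 28.1 in wild types 1, 3 and 4. Mutant 1 lay just above wild type 3, so that the groups overlapped narrowly. The libraries held 22, 19 and 14 counts of it in mutants and 26, 21 and 35 in wild types. The log2 difference was -0.58 ± 0.257 (SE; limma adjusted p = 0.131), as large as that of sox3 but with a 95% interval from -1.11 to -0.04. It was -0.35 without mutant 3.

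**Figure D1:**
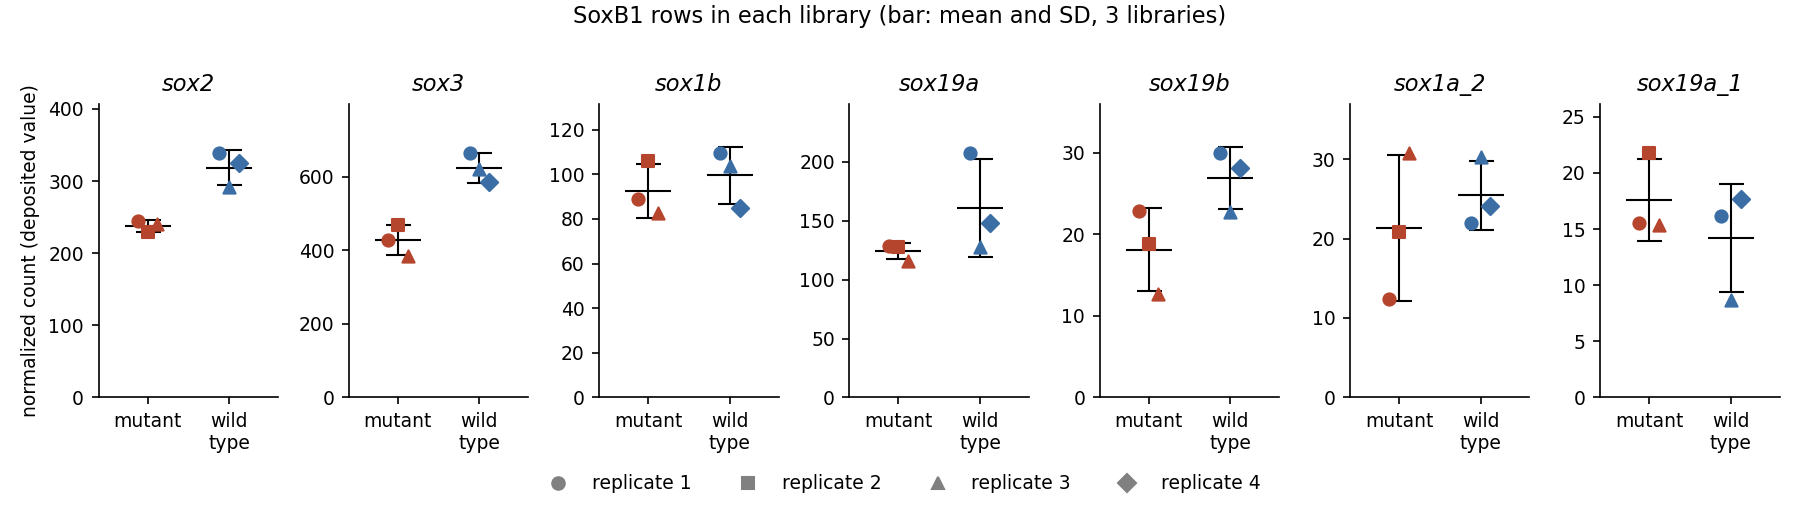
Normalized counts of each SoxB1 row (y axis, from 0, its own scale per panel) in the 3 mutant libraries (left, red) and the 3 wild type libraries (right, blue), with marker shapes for the replicate numbers and bars for the mean and SD. The mutant points lie under all wild type points for sox2 and sox3, while the other rows overlap, sox19a because wild type 3 sits at 127.7 beside mutants at 128.3 and 127.8.

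The spread between libraries of 1 genotype was set beside the spread that counting alone gives. The coefficient of variation of sox2 was 3.37% in mutants and 7.77% in wild types, where counting alone gives 6.40% and 5.57%. For sox3 it was 9.64% in mutants and 6.51% in wild types, where counting gives 4.78% and 4.00%. The sox3 values spread more widely than counting gives in both genotypes, but each spread rests on 3 libraries and the excess was not tested. sox19a had 5.56% in mutants and 25.9% in wild types, where counting gives 8.87% and 7.89%. Counting alone gives sox19b 23.4% in mutants and 19.1% in wild types, which limits what can be seen for it at this depth. These figures cover counting error only.

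**Figure D2:**
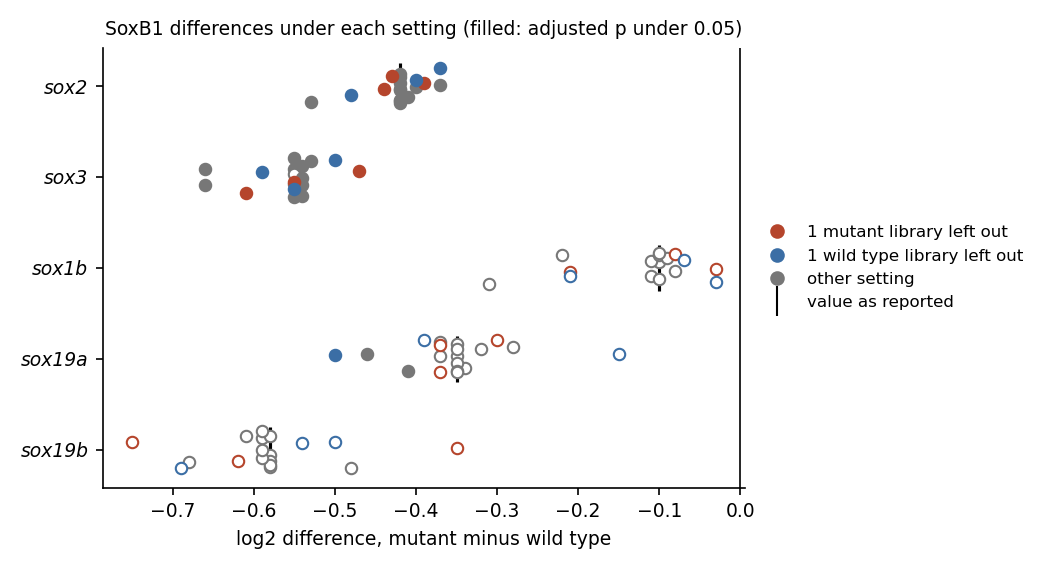
The log2 difference (x axis, mutant minus wild type) of each SoxB1 member under every setting tried, with 1 point a setting, filled where the adjusted p was under 0.05, and a black bar for the value as reported. Values for sox2 run from -0.53 to -0.37 and for sox3 from -0.66 to -0.47, and each is open once. sox19a runs from -0.50 to -0.15 and is filled in 3 settings, and sox1b and sox19b are open throughout.

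Taken as a sum, the 5 rows held 912.8, 949.0 and 836.9 normalized counts in mutants 1, 2 and 3, against 1351.6, 1164.8 and 1170.3 in wild types 1, 3 and 4. Every mutant library lay under every wild type library, and the ratio of the means was 0.732. The same rows took 0.0459 to 0.0499% of all counts in mutant libraries and 0.0673 to 0.0751% in wild type ones (exact 95% binomial intervals from 0.0430 to 0.0531% and from 0.0633 to 0.0795%). No test is given for the sum, which sox3 and sox2 lead.

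The make-up of that sum is described by the share of each member, with no test. The assay tags 3′ ends, so no value was divided by gene length, and shares of different genes also depend on how their ends are annotated. sox3 made up 47.4 ± 1.66% of the SoxB1 counts in mutants and 50.7 ± 2.12% in wild types, and sox2 made up 26.5 ± 2.31% and 26.0 ± 1.58% (SD, n = 3 each). sox1b made up 10.3 ± 0.790% in mutants and 8.10 ± 0.823% in wild types, and its lowest mutant share, 9.75%, was above its highest wild type share, 8.92%. Its own mean was 92.5 in mutants and 99.6 in wild types, so the higher share is of a lower sum and is not a rise of sox1b.

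The amounts by which the members differed were compared in 10 pairs, as the log2 ratio of 2 members in each library. Only the pair of sox1b and sox3 had ratios that did not overlap between genotypes: the mean log2 ratio was -2.20 in mutants and -2.64 in wild types, a difference of 0.44 (exact permutation test, two-sided, p = 0.10, adjusted p = 0.571 over the 10 pairs). The smallest p that 3 against 3 libraries allow is 0.1, so no pair could pass this permutation test, and it does not settle whether some members changed more than others. For sox2 and sox3 the difference was 0.13 (exact permutation p = 0.40, adjusted p = 0.571).

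Other Sox genes had differences of both signs, most of which did not pass. Of 21 other Sox genes listed, 12 were matched and tested. Of these 3 fell, 1 rose and 8 did not pass, with a median log2 difference of 0.03. Over all genes tested, 8.5% were lower and 10.9% higher. Among the SoxB2 genes, sox14, a repressor that is also a mark of particular interneurons, fell to 78.7, 90.1 and 86.1 normalized counts in mutants, against 190.4, 144.0 and 158.2 in wild types. The groups were far apart, and the log2 difference was -0.93 (limma adjusted p = 2.16e-05). The other, sox21b, was low at 5.87 ± 1.23 in mutants and 8.57 ± 3.06 in wild types (SD, n = 3 each) and did not pass (limma adjusted p = 0.514).

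Of 4 SoxC genes, which act in cells that leave the progenitor state and become neurons, 2 fell. sox4a had 846.6, 796.4 and 841.4 normalized counts in mutants against 1181.9, 1230.9 and 1118.9 in wild types, with no overlap and a log2 difference of -0.51 (limma adjusted p = 3.55e-05). sox11a differed by -0.28 (limma adjusted p = 0.0247), a call lost without mutant 1 or 2 or wild type 3 or 4, at adjusted p values up to 0.107, and under 4 other settings. The paralogues sox4b and sox11b, with differences of -0.20 and 0.03, did not pass. Neither did the SoxD genes sox5 and sox6, at 0.15 and 0.03, nor the SoxE genes sox9a and sox10 of neural crest and cartilage, at 0.79 and 0.44. sox7, a SoxF gene of vessel endothelium, rose by 0.70 (limma adjusted p = 0.0133), a call lost without mutant 1 (adjusted p = 0.0901) or wild type 3 (adjusted p = 0.0547). The other SoxF gene tested, sox18, differed by 0.26 (limma adjusted p = 0.380).

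**Figure D3:**
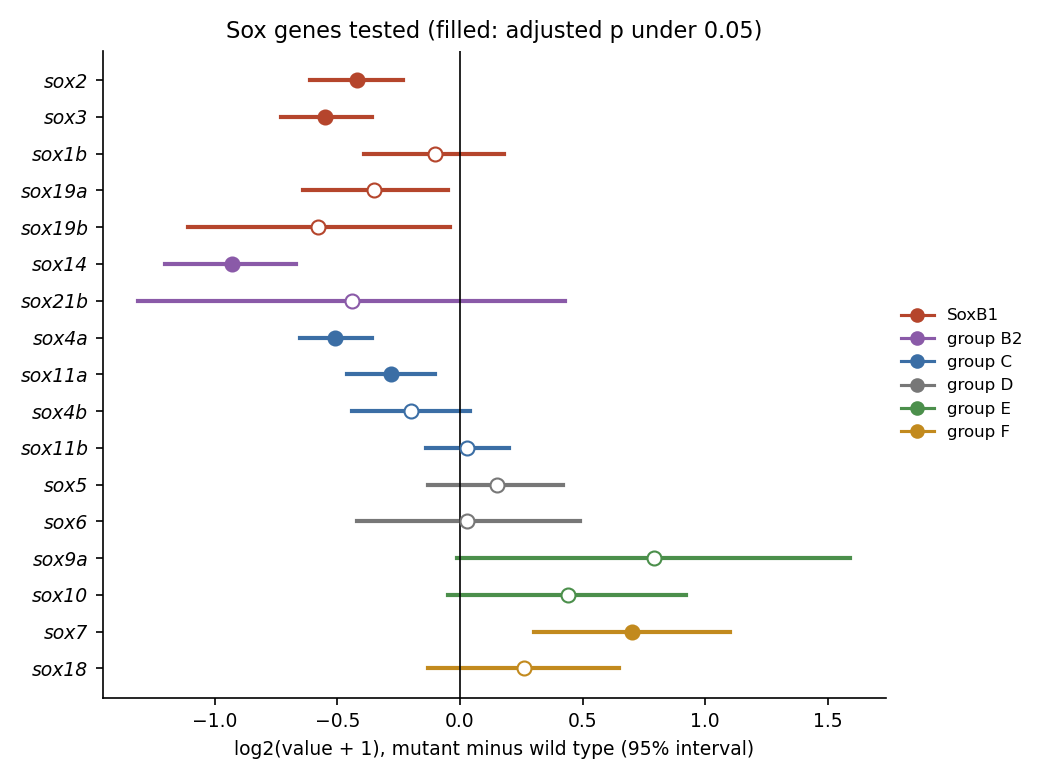
The log2(value + 1) difference, mutant minus wild type (x axis), with its 95% interval for each Sox gene tested (y axis), coloured by Sox group and filled where the adjusted p was under 0.05. sox2, sox3, sox14, sox4a and sox11a lie below 0 with filled points, sox7 lies above 0 at 0.70, and the widest intervals belong to the low rows sox21b and sox9a.

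Of 12 POU and PAX factors tested, the families from which SoxB1 partners come, 2 fell, none rose and 10 did not pass, with a median of -0.17. With equal totals 4 fell and none rose, with a median of -0.28, while the median over all genes moved by -0.11. pax6a, a regulator of eye and forebrain progenitors whose product binds lens enhancers together with Sox2 in the chick, fell to 307.8 ± 22.1 normalized counts in mutants, against 447.1 ± 26.1 in wild types (SD, n = 3 each). This was a log2 difference of -0.54 (limma adjusted p = 1.90e-04). Its paralogue pax6b had 155.1 ± 18.6 in mutants and 163.4 ± 10.2 in wild types (SD, n = 3 each; limma adjusted p = 0.681). pou3f2b, whose mammalian homologue Brn2 acts with Sox2 at a nestin enhancer, had a log2 difference of -0.67 (limma adjusted p = 0.0354), a call lost without mutant 1 or 2 or wild type 1 or 4, at adjusted p values up to 0.155, and with a replicate block, at -0.45 (adjusted p = 0.327). The other pou3f genes, pou3f1, pou3f2a, pou3f3a and pou3f3b, differed by -0.26, -0.08, 0.16 and -0.11 and did not pass.

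Genes tied to SoxB1 factors in fish or mammals, as targets or through shared territories, moved both ways. Of 19 tested, 7 fell, 3 rose and 9 did not pass, with a median of -0.12. rx3, a gene of the eye field and the hypothalamus, fell to 48.7 ± 7.38 normalized counts in mutants, against 161.5 ± 19.8 in wild types (SD, n = 3 each), a log2 difference of -1.71 (limma adjusted p = 4.42e-08). otx2, of the forebrain and midbrain, fell by 0.83 on the log2 scale. fabp7a, a lipid-binding protein gene of radial glia, fell by 1.09 on that scale. ccnd1, encoding cyclin D1, rose by 0.73. lin28a, encoding an RNA-binding protein of early progenitors, was called higher by 2.08 (limma adjusted p = 0.0021), but at low values. It had 21.7, 18.8 and 21.8 normalized counts in mutants, against 1.2, 6.5 and 7.2 in wild types. Its wild type mean of 4.97 was under the minimum of 5 for testing, which lin28a reached only through the mutant libraries. pcdh18a, a protocadherin gene that depends on SoxB1 in zebrafish embryos, rose by 0.65 (limma adjusted p = 0.00881), a call lost without mutant 2 (adjusted p = 0.0688) and with a replicate block (adjusted p = 0.0789).

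The nearest patterns to each called member were sought among 5873 rows with a mean of at least 20, by the root mean square distance between centred log2(value + 1) values over the 6 libraries. For sox2 they were lin7a, at a distance of 0.0440, btbd2a_1 at 0.0505 and eef1e1 at 0.0512, with log2 differences of -0.41, -0.35 and -0.36. Only eef1e1 of these passed the test (limma adjusted p = 0.0113). For sox3 they were fam219ab at 0.0447, si:dkeyp-75h12.5_1 at 0.0456 and zgc:65894 at 0.0493, with differences of -0.55, -0.48 and -0.54, and these 3 passed. All these rows were picked for closeness to a called member, so their lower level in mutants followed from the choice. Counting alone gives lin7a a coefficient of variation of 17.8% in mutants and 15.5% in wild types. Rows at such depth can come near a member through counting error.

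Genes listed as markers of neural progenitors, and of other cells, moved in the same libraries, and whether the cells that hold them express SoxB1 genes was not tested. Of 33 neural progenitor markers tested, 13 fell and 3 rose, with a median of -0.20 (17 and 3 with equal totals, median -0.32). Their summed level was 11332.4 to 12706.6 normalized counts in mutants against 13713.1 to 15373.1 in wild types. mdkb, a growth factor gene, fell by 0.70 on the log2 scale, and slc1a2b, a glutamate transporter gene of radial glia, fell by 0.87. dlb, a Notch ligand gene, rose by 0.55, and slc1a3a, another glial transporter gene, by 0.81. Of 43 neuron markers 17 fell and 1 rose, with a median of -0.23 (26 and 0 with equal totals, median -0.34) and sums of 32974.4 to 34740.0 in mutants against 37064.2 to 39550.5 in wild types. Among all genes tested, 8.5% were lower and 10.9% higher, with a median of -0.014. With equal totals 13.5% were lower and that median was -0.12, so the lower list medians there go with a shift of all genes. Of 25 proliferation markers 11 rose and none fell as deposited, with a median of 0.31. With equal totals 10 rose and 1 fell, with a median of 0.20. The sums were 7656.8 to 8615.5 in mutants against 5911.1 to 6201.6 in wild types. The 11 that rose as deposited were pcna, mcm2 to mcm7, rrm1, rrm2, cdca7a and cdca7b. The other 14, with mki67, top2a and aurka among them, did not pass. Their differences ran from -0.25 for ccnb1 to 0.48 for ccnb2, so the rise did not cover the whole list. pcna, the replication clamp gene, rose by 0.67 while sox2 and sox3 were lower in the same libraries.

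SoxB1 genes are also active in the eye, and eye markers showed larger differences than the members. Of 23 retina markers 11 fell and 2 rose, the higher ones being the pigment genes pmela and dct, with a median of -0.68 and sums of 1788.8 to 1971.6 in mutants against 2742.7 to 3509.8 in wild types. Of 24 lens markers 23 fell and 1, pitx3, rose, with a median of -5.31; the pitx3 call was lost without wild type 4 (adjusted p = 0.0594) and with a replicate block (adjusted p = 0.112). The 29 lens rows found summed to 196.4 to 280.3 in mutants and 3556.3 to 4873.9 in wild types, and 5 of them were listed at 0 in all mutant libraries. The minimum of 5 for testing is a mean over both genotypes, so lens rows near 0 in mutants could meet it through wild type alone. For such rows a fall was bound to be found, and its fitted size depends on the 1 added before the log. Of the members tied to the lens in this text, sox1b did not pass and sox2 fell, with the values given above, and sox1a was not analysed. The part of the retina and lens in the sox2 and sox3 differences was not tested.

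Most tested markers of the inner ear and lateral line, where sox2 and sox3 are active too, were higher: of 6 tested 5 rose and none fell, six1b by 1.36 and dlx3b by 1.29 on the log2 scale. The other, atoh1b, did not pass (0.81, limma adjusted p = 0.506). Of 18 genes listed 11 had a row, and tecta, tectb, otog, myo6b and otofb were too low to test. The 11 rows summed to 360.6 to 454.2 in mutants against 134.0 to 160.6 in wild types. Of 23 mesenchyme and matrix markers 20 rose and none fell, with sums of 7776.5 to 8761.4 in mutants against 3232.7 to 3857.4 in wild types, and of 16 epidermis markers 12 rose and none fell. Of 14 neural crest and pigment markers 5 rose and 3 fell, and pmela and dct, already counted with the retina markers, were among those that rose. Of 12 endothelial markers 4 rose and 1 fell. Globin genes, 6 in all, summed to 1843.3, 18.9 and 267.4 in mutants 1, 2 and 3, against 0, 0 and 4.8 in wild types 1, 3 and 4. Mutant 1 stood apart in this, and without it the differences were -0.44 for sox2 (limma adjusted p = 0.00846) and -0.55 for sox3 (limma adjusted p = 0.0012). The part of these other cell types in the SoxB1 differences was not tested.

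**Figure D4:**
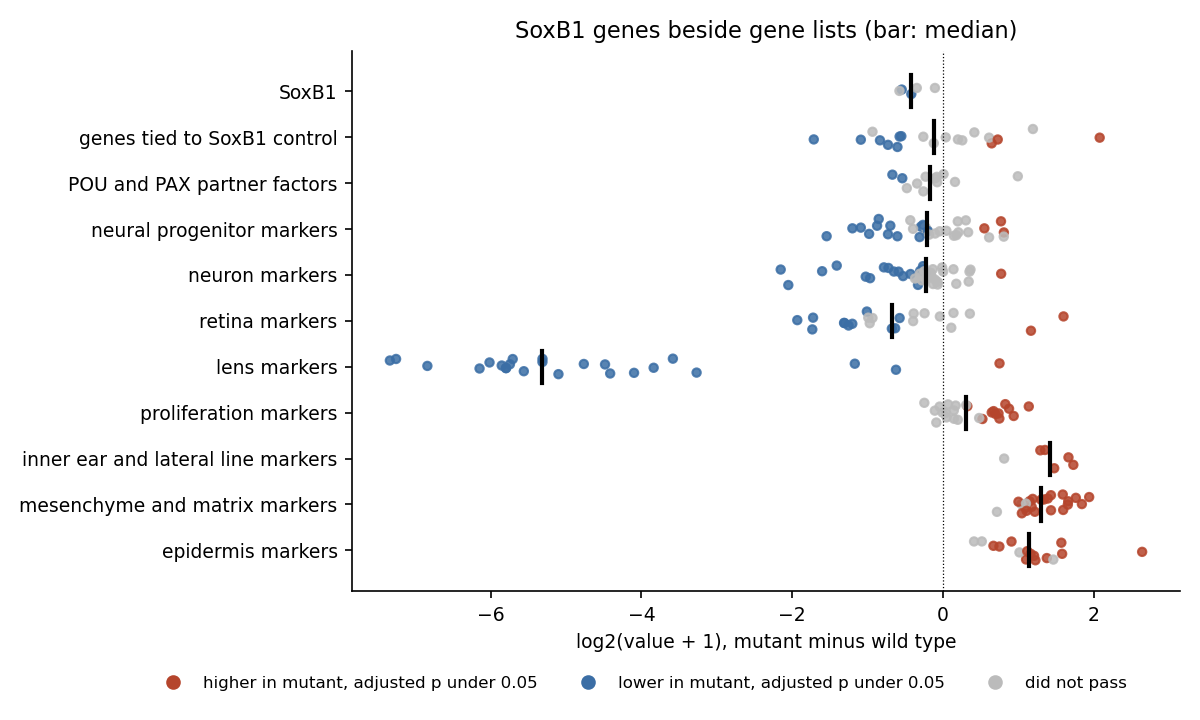
The log2(value + 1) difference, mutant minus wild type (x axis), of each tested gene in the SoxB1 group and in 10 gene lists (y axis), red where higher and blue where lower in mutants with an adjusted p under 0.05, grey where the test was not passed, with a bar at each median. The SoxB1 median of -0.42 lies between those of the neural progenitor markers, -0.20, and the retina markers, -0.68. Lens markers reach a median of -5.31, though lens rows near 0 in mutants could be tested through wild type values alone. The medians of the mesenchyme, epidermis and inner ear markers lie above 0.

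The libraries held 1838121 to 2011118 recovered counts in mutants and 1560238 to 2086990 in wild types. Across all genes 1053 were higher and 820 lower in the mutant, or 795 and 1306 with equal totals. The row of scarb2a itself held 12 counts over the mutant libraries and 7 over the wild type ones, too few to check the genotype labels.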

How the data were processed

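The authors deposited 1 table of normalized values per gene symbol, a signal in which each library appears to have its counts divided by a single factor: of 67308 deposited values, 99.997% came out as a whole number of counts within a tolerance of 0.0505. MARS-seq in bulk form, a method that tags 3′ ends, was used, per the labels' protocols. The genome build was danRer11, per the submitters' processing notes; the sources used here do not name the aligner, the counter or the normalization. They also do not say whether a count is a read or a molecule, so intervals cover counting error only.

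Members, gene lists and tests were chosen with earlier results of these data known. Values are means ± SD of deposited values over 3 libraries. limma was fitted to log2(value + 1) with a mean-variance trend and genotype as the only term, for the 9647 genes with a mean of at least 5, with Benjamini-Hochberg adjustment over all of them. A fold on this scale understates the change of low genes. Of 423 entries in 18 lists, 298 matched a row by symbol or by an older symbol in the RefSeq table of GRCz12tu, whose build differs from danRer11 and whose coordinates are not printed. Some genes stand in several lists, among them fabp7a, cdh2, notch1a, rx1, rx2, mki67, sox10, pmela and dct, so the counts of different lists are not independent. The rule for naming genes picked the members and the 3 nearest patterns per called member. It also picked up to 3 called genes in each direction with the smallest adjusted p per Sox, POU and PAX, SoxB1-tied or progenitor list, and up to 2 per other list. Not all genes picked in this way are described above: si:ch211-251b21.1, neurod1, tbr1b, vsx1 and crx are among those left out. Other genes of the Sox, POU and PAX families were named after their values were seen, because they are paralogues. Further proliferation, inner ear and lateral line genes were also named outside this rule.

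No library was a duplicate: the chi-square of counts per degree of freedom was 1.77 to 2.26 for pairs of the same genotype and 6.47 to 9.41 for pairs of different genotypes. Alternatives were other pseudocounts, filters and scalings, limma without a trend or with sample weights, DESeq2 and edgeR run on recovered counts, each library left out, and a replicate block. The limma step was tested on simulated data. The fits used limma 3.58.1, DESeq2 1.42.0 and edgeR 4.0.16 in R 4.3.3; tables and figures used pandas 2.3.3, numpy 2.4.6, matplotlib 3.10.9 and scipy 1.17.1 in Python 3.11.15.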

Additional observations from a re-analysis of the deposited data

How the results depend on the processing

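sox2 and sox3 kept their direction under all 18 alternatives and their call under 17; in limma without a trend the differences of -0.42 and -0.55 missed the threshold, so that 0 members were called lower there, against 2. The cause was not tested. sox1b and sox19b kept a negative sign and passed under none of the 18. sox19a passed with equal totals (-0.46), with a replicate block (-0.41, adjusted p = 0.0352) and without wild type 3. With 1 library left out its difference ran from -0.50 to -0.15, and the number of members called lower was 2 to 3, with 3 only without wild type 3. Over all genes, those fits called 586 to 661 lower, against 820 with all libraries. The sum of the SoxB1 rows in mutants over wild types was 0.678 with equal totals and 0.712 to 0.770 with 1 library left out. Over all genes, 1873 passed; limma without a trend called 1007 (578 higher, 429 lower), DESeq2 called 1031 (622 higher, 409 lower), and 1306 were lower with equal totals. Replicate numbers 1 and 3 occur in both genotypes, but same-numbered libraries did not deviate together (correlations of 0.043 and -0.01), so the block is only a check. Mutant 2 and wild type 4 have no library of the same number in the other genotype. The differences in the block fit therefore rest on replicates 1 and 3 alone. With a term for each replicate number, the block fit leaves few degrees of freedom for error, so its adjusted p values lean mostly on the variance pooled over genes. The block called 1597 genes and left the calls of sox2 (-0.37) and sox3 (-0.66) in place. Depth limits sox19b most, at 14 to 35 counts a library. Among the other named genes, limma without a trend also ended the calls of sox11a, sox7, pou3f2b, pcdh18a, dct, pitx3, eef1e1, fam219ab, si:dkeyp-75h12.5_1 and zgc:65894, and DESeq2 those of sox11a, sox7, pou3f2b, pitx3 and eef1e1, and the replicate block those of sox11a, pou3f2b, pcdh18a and pitx3.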
